A study of Mus musculus with 4 samples.

Results

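The 10 genes described here encode proteins that the mouse epididymis places in its lumen around maturing sperm: the glutathione peroxidase Gpx5, the lipocalins Lcn5, Lcn6, Lcn8, Lcn9, Lcn10 and Lcn12, the beta-defensin Defb48, the membrane protein Adam7 and the sperm-binding protein Crisp1. They were chosen by their known place in the epididymis and with their values on these arrays already seen, so every value below is a description. A gene was read from the probe that has it as its single symbol, and 9 of the 10 genes had 1 such probe each. No probe carried Crisp1 alone, and Crisp1 is not analysed here. The 9 genes are part of 22180 genes measured on the arrays.

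The tissue was epigonadal white fat of fasted male mice, the fat pad that lies against the epididymis and testis. LTKO mice carry floxed Irs1, Irs2 and Foxo1 with an Albumin-Cre transgene, which acts in hepatocytes, and the Irs1/2:FoxO1-flox control carries the same floxed genes without Cre. LDKO mice carry floxed Irs1 and Irs2 with Albumin-Cre, and the Irs1/2-flox control has these floxed genes without Cre. The age of LTKO and LDKO mice was 4 months and that of the controls is not stated, so age and genotype cannot be told apart in a comparison with a control. Each group has 1 array, and the labels do not say whether its RNA came from 1 mouse or from several. Without replicates there is no error estimate and no test for any difference below. Values are log2 signals, so a difference of 1 is 2-fold.

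The epididymis is a coiled duct that carries sperm away from the testis, and its lining secretes a different mixture of proteins in each stretch. The initial segment, next to the testis, is followed by the caput, the corpus and the cauda, where sperm are stored. In the mouse, Lcn8, Lcn9 and Lcn10 are known as genes of the initial segment, Gpx5, Adam7, Lcn5, Lcn6 and Lcn12 as genes of the caput, and Crisp1 as a gene of the distal caput and the stretches after it. No segment was assigned to Defb48. Adipocytes are not known as a source of these proteins.

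The fat label was checked first. Adipoq, the adiponectin gene, had 10.35 in LTKO, 10.48 in the Irs1/2:FoxO1-flox control, 10.57 in LDKO and 10.49 in the Irs1/2-flox control, and Fabp4, the fatty acid carrier of adipocytes, lay between 12.98 and 13.09. None of the 11 measured adipocyte genes was 2-fold apart between LTKO and its control. In LDKO 1 of them, the glucose transporter Slc2a4, was 2-fold higher than in its control, with 0.334% of all genes so. Over all probes the array medians lay between 4.68 and 4.73, and any 2 arrays correlated across genes with Pearson's r between 0.986 and 0.991.

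Of the 9 measured epididymal genes, 5 stood high on the LTKO array and on no other: Gpx5, Lcn9, Defb48, Lcn8 and Adam7. Each was at least 2-fold above the highest of the 3 other arrays, which held for 0.383% of all genes. Against the Irs1/2:FoxO1-flox control alone, the same count was 5 higher and 0 lower, where 1.13% of all genes were higher by that much and 0.0361% lower. The median difference of the 9 genes was 1.40, against −0.02 for all genes. The remaining 4, Lcn5, Lcn6, Lcn10 and Lcn12, differed from that control by between −0.09 and 0.53. In a bulk sample, more cells of a type and more RNA per cell cannot be told apart.

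**Figure D1:**
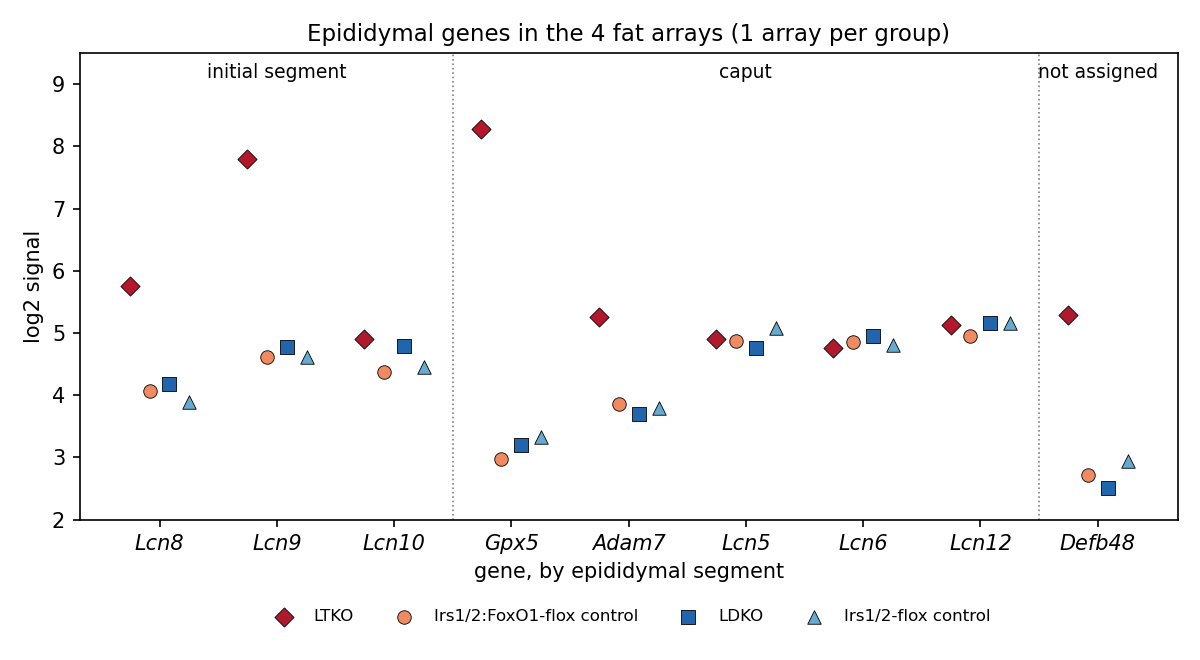
Log2 signal (vertical axis) of the 9 measured epididymal genes on the LTKO, Irs1/2:FoxO1-flox control, LDKO and Irs1/2-flox control arrays, 1 point per array, with genes grouped by epididymal segment. Lcn8, Lcn9, Gpx5, Adam7 and Defb48 have an LTKO point well above the 3 others, with Gpx5 at 8.28 in LTKO, while the 4 points of Lcn5, Lcn6, Lcn10 and Lcn12 lie close together.

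Gpx5, a secreted glutathione peroxidase that works without selenium and guards sperm against peroxide damage, had 8.28 in LTKO and 2.97 in the Irs1/2:FoxO1-flox control. It had 3.20 in LDKO and 3.32 in the Irs1/2-flox control. The LTKO value was 39.6-fold above its control, the largest positive difference of all 22180 genes. The 3 other arrays spanned 0.35, so the LTKO array alone was high.

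Among the genes of the initial segment, 2 of 3 were high in LTKO. Lcn9, a lipocalin, that is a small secreted protein with a pocket for fatty or other water-repelling molecules, had 7.80 in LTKO and 4.62 in the Irs1/2:FoxO1-flox control. It had 4.77 in LDKO and 4.62 in the Irs1/2-flox control. Its LTKO difference of 3.18 was the third largest on the arrays. Lcn8, a lipocalin of the same stretch, had 5.75 in LTKO, 4.07 in the Irs1/2:FoxO1-flox control, 4.18 in LDKO and 3.90 in the Irs1/2-flox control, and was 3.19-fold higher in LTKO when set against its control. The 3 other arrays spanned 0.16 for Lcn9 and 0.28 for Lcn8, and the LTKO value was far above both ranges. Lcn10 had 4.90 in LTKO and 4.38 in the Irs1/2:FoxO1-flox control, but 4.79 in LDKO and 4.46 in the Irs1/2-flox control. Its LTKO value was the highest of the 4 by only 0.12, while the 3 others spanned 0.41, so Lcn10 did not set the LTKO array apart from LDKO.

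Among the genes of the caput, 2 of 5 were high in LTKO, Gpx5 and Adam7. Adam7, a protein of the ADAM family that the caput epithelium releases and passes to the sperm surface, had 5.25 in LTKO, 3.85 in the Irs1/2:FoxO1-flox control, 3.70 in LDKO and 3.79 in the Irs1/2-flox control. The fold over its control was 2.64, and the 3 other arrays spanned 0.15. Lcn5, which carries retinoic acid in the caput lumen, had 4.90 in LTKO, 4.88 in the Irs1/2:FoxO1-flox control, 4.76 in LDKO and 5.07 in the Irs1/2-flox control. Its LTKO value lay inside the range of the 3 others. Lcn6 was between 4.76 in LTKO and 4.95 in LDKO, and Lcn12 had 5.12 in LTKO, 4.96 in the Irs1/2:FoxO1-flox control, 5.15 in LDKO and 5.15 in the Irs1/2-flox control. No array stood apart for these 3 lipocalins. Within the caput group the LTKO differences thus ran from −0.09 for Lcn6 to 5.31 for Gpx5, and the high and flat genes did not divide along the border between the segments.

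Defb48, a member of the beta-defensins, small cationic peptides of which many are secreted in the epididymis, had 5.29 in LTKO and 2.71 in the Irs1/2:FoxO1-flox control. It had 2.51 in LDKO and 2.94 in the Irs1/2-flox control. The LTKO value was 5.97-fold above its control, and the 3 others spanned 0.42.

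The probes of the 5 high genes were dim outside the LTKO array. The median gene of the arrays had a mean of 5.15, and Gpx5, Lcn8, Lcn9, Defb48 and Adam7 reached that level in LTKO only. Lcn5, Lcn6 and Lcn10 reached it on no array, and Lcn12 reached it in LDKO and in the Irs1/2-flox control. For a dim probe, a flat value does not show that the RNA was absent or equal. A fold over a dim control can understate the true one, since RMA compresses low values, but this was not tested here.

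In LDKO, set against the Irs1/2-flox control, 0 of the 9 genes were 2-fold higher, with 0.334% of all genes so, and 0 were 2-fold lower, with 0.356% of all genes so. The differences ran from −0.42 for Defb48 to 0.33 for Lcn10, with a median of 0.00, as over all genes. Set directly against LDKO, LTKO was at least 2-fold higher at the same 5 genes, with 0.929% of all genes higher by that much, and lower at 0, with 0.383% of all genes lower. The differences there were 5.08 for Gpx5, 3.03 for Lcn9, 2.78 for Defb48, 1.57 for Lcn8 and 1.55 for Adam7. This comparison shares the LTKO array with the one above, so it is no second sign. Between the Irs1/2:FoxO1-flox control and the Irs1/2-flox control 0 of the 9 genes were 2-fold higher, with 0.149% of all genes so, or lower, with 0.334% of all genes so, and the largest gap was −0.35 at Gpx5.

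The 6 lipocalin genes lie along 1 stretch of chromosome 2, in the order Lcn12, Lcn8, Lcn5, Lcn6, Lcn10 and Lcn9, with 16 other measured genes between them. Lcn8 and Lcn5 follow each other directly among measured genes, yet differed from the Irs1/2:FoxO1-flox control by 1.67 and 0.02 in LTKO. None of the 16 other genes was 2-fold apart in LTKO, and their differences ran from −0.67 for Fcna, a ficolin of macrophages, to 0.23 for Lcn3, with a median of −0.01. The stretch holds the lipocalins Lcn3 and Lcn11, whose LTKO differences were 0.23 and −0.65, and the odorant-binding proteins Obp2a and Obp2b, with 0.17 and −0.01. The high signal was at single genes, not along the stretch.

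**Figure D2:**
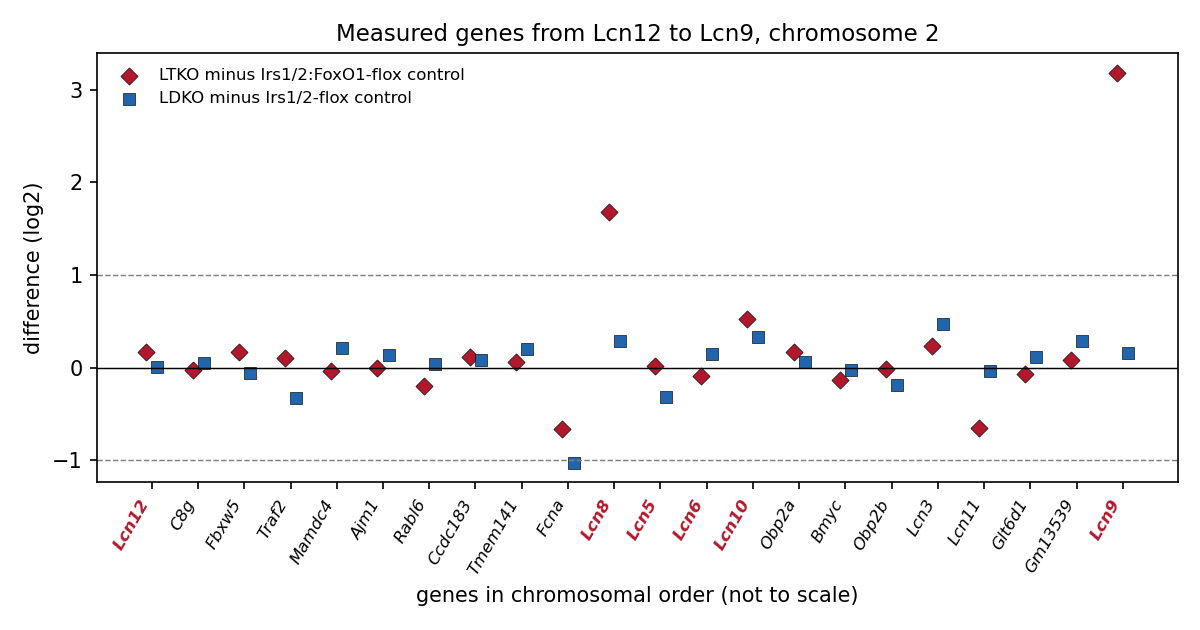
Differences on the log2 scale (vertical axis) of LTKO minus the Irs1/2:FoxO1-flox control and of LDKO minus the Irs1/2-flox control for the 22 measured genes from Lcn12 to Lcn9, in chromosomal order and not to scale, with the epididymal lipocalins in bold and dashed lines at 2-fold. Only Lcn8 (1.67) and Lcn9 (3.18) pass 2-fold upward in LTKO, and their neighbours lie between the lines in LTKO.

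Over all 9 genes, the 5 nearest measured genes on each side that are no epididymal genes of the set came to 56 genes. Of these, 0 were lower in LTKO by 2-fold, set against its control, with 0.0361% of all genes so. Higher by that much was 1 gene, a count near the 1.13% of all genes. That gene was Adam28, a membrane protease gene beside Adam7, with 5.17 in LTKO, 4.06 in the Irs1/2:FoxO1-flox control, 3.99 in LDKO and 4.12 in the Irs1/2-flox control. Gpx6, the neighbour and a relative of Gpx5, had 3.64 in LTKO, 3.48 in the Irs1/2:FoxO1-flox control, 3.90 in LDKO and 3.70 in the Irs1/2-flox control. The defensin genes next to Defb48 differed by −0.15 (Defb47), −0.18 (Defb43), 0.04 (Defb30) and 0.56 (Defb42).

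The promoters of the high genes Lcn9, Lcn8, Gpx5 and Defb48 are shown beside that of the flat Lcn5, the direct neighbour of Lcn8, so that genes that went together on the LTKO array can be read against one that did not. Each is the 250 bases before the gene's start in RefSeq, build GRCm38.p6, 5′ to 3′ on the gene's own strand, and capitals mark the motifs named below.
Lcn9, chr2:25822903-25823152, plus strand: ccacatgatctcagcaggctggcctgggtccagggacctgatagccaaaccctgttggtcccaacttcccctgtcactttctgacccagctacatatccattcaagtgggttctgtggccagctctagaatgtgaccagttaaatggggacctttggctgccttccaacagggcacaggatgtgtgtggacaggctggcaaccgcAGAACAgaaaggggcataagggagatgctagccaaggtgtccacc
Lcn8, chr2:25652868-25653117, plus strand: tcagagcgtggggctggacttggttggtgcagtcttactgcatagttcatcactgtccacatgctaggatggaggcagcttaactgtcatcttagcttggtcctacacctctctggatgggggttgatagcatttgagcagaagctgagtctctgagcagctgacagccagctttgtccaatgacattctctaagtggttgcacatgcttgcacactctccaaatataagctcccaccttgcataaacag
Lcn5, chr2:25657702-25657951, plus strand: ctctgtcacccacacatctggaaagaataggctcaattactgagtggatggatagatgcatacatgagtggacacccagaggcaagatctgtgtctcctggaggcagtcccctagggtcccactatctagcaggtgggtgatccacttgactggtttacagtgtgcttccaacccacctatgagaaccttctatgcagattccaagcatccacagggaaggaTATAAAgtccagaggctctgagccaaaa
Gpx5, chr13:21292687-21292936, minus strand: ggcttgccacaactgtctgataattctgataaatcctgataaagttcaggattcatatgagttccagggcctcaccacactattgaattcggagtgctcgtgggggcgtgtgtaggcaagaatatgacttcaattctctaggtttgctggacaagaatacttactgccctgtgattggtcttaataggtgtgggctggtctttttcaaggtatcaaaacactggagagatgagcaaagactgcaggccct
Defb48, chr14:62984511-62984760, minus strand: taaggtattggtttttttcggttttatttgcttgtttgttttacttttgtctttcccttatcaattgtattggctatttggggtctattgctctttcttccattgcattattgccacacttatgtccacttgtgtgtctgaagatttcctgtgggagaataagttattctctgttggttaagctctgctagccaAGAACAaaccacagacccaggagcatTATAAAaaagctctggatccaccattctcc

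The motifs searched, on both strands, were AGAACA, the half-site of the androgen receptor, which drives many epididymal genes, AGGAAG, a core read by ETS factors, and TATAAA, the TATA box. No 2 matches overlapped. Of the 8 measured genes with a promoter in the table, 5 held AGAACA (Lcn6, Lcn9, Lcn10, Lcn12 and Defb48), a motif in 16.1% of all 32851 promoters of this length. It lay at positions −45 to −40 from the start in Lcn9 and at −56 to −51 in Defb48, both high in LTKO, but it was also in Lcn6, Lcn10 and Lcn12, which were flat, and not in the windows of Gpx5 and Lcn8. AGGAAG was in 0 of the 8, against 29.5% of all promoters, and TATAAA was in 2, Lcn5 and Defb48, against 12.4%. Adam7, also high in LTKO, had no promoter to search. The motifs did not divide the high genes that were searched from the flat ones, and a match is a description of letters, not a binding site.

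Other genes of the epididymis were read from a list. The median LTKO difference from its control was 0.14 over 22 measured genes of further secreted proteins. Of these, 3 were 2-fold higher, with 1.13% of all genes so, and 0 were 2-fold lower, with 0.0361% of all genes so. They were Teddm2 with 4.53 in LTKO and 3.23 in the Irs1/2:FoxO1-flox control, Adam28, and Ovch2, a secreted protease needed for sperm maturation in mice, with 4.50 in LTKO and 3.39 in the Irs1/2:FoxO1-flox control. All 3 were also at least 2-fold above the 2 further arrays. The cystatin gene Cst11 had 3.47 in LTKO and 2.59 in its control, a difference of 0.88. Of these 22 genes, 19 were under the median gene on every array, and 0 were 2-fold apart between LDKO and its control. Of 41 measured beta-defensin genes other than Defb48, 1 had a 2-fold higher level in LTKO against its control, a count near the 1.13% of all genes. This was Defb20, with 5.39 in LTKO, 3.89 in the Irs1/2:FoxO1-flox control, 4.17 in LDKO and 3.95 in the Irs1/2-flox control. The median of the 41 was −0.01, and 34 of them were under the median gene on every array.

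For 11 genes of the duct lining whose products are not secreted, the median LTKO difference from its control was 0.34. The Irs1/2:FoxO1-flox control was itself under the Irs1/2-flox control for this list, with a median difference of −0.31. Of the 11, 2 were 2-fold higher in LTKO than in the Irs1/2:FoxO1-flox control, with 1.13% of all genes so. They were the sodium-proton exchanger Slc9a3, with 6.03 in LTKO, 4.82 in the Irs1/2:FoxO1-flox control, 4.99 in LDKO and 5.13 in the Irs1/2-flox control, and the transcription factor Pax8, with 6.23 in LTKO, 5.09 in the Irs1/2:FoxO1-flox control, 5.51 in LDKO and 5.61 in the Irs1/2-flox control. Both were highest in LTKO, but neither was 2-fold above all 3 others. The water and glycerol channel gene Aqp9 had 5.79 in LTKO, 5.07 in the Irs1/2:FoxO1-flox control, 5.20 in LDKO and 5.56 in the Irs1/2-flox control, and was highest in LTKO. The chloride channel gene Cftr had 5.36 in LTKO, 4.71 in the Irs1/2:FoxO1-flox control, 5.02 in LDKO and 5.53 in the Irs1/2-flox control, and so was highest in a control. Ros1 had 3.61 in LTKO, 3.26 in the Irs1/2:FoxO1-flox control, 3.51 in LDKO and 3.25 in the Irs1/2-flox control. Atp6v1b1 went the other way, with 4.68 in LTKO, 4.98 in the Irs1/2:FoxO1-flox control, 4.55 in LDKO and 4.70 in the Irs1/2-flox control. Among 12 general epithelial genes, with a median of 0.47, 2 were higher in LTKO by 2-fold against its control, with 1.13% of all genes so. For this list too, the Irs1/2:FoxO1-flox control was under the Irs1/2-flox control, with a median difference of −0.33. The 2 genes were the cell adhesion gene Epcam, higher by 1.59, and the cadherin gene Cdh1, higher by 1.26 (0.43 by its other probe). Epcam had 7.46 in LTKO, 5.87 in the Irs1/2:FoxO1-flox control, 6.27 in LDKO and 6.61 in the Irs1/2-flox control. Neither was 2-fold above all 3 other arrays.

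Genes of other tissues near the fat pad, or foreign to it, were read on the same arrays. Of 14 sperm and spermatid genes, 7 reached a 2-fold higher level in LTKO, relative to its control, and 0 a 2-fold lower one, with a median of 1.14. Over all genes, 1.13% were higher by that much and 0.0361% lower. The leading ones were Adam5 with 6.13 in LTKO and 3.07 in the Irs1/2:FoxO1-flox control, the sperm mitochondrial gene Smcp with 6.17 and 3.17 on the same arrays, and the transition protein genes Tnp2 and Tnp1, higher by 2.39 and 2.08. All 7 were 2-fold above each of the 3 other arrays, which held for 0.383% of all genes. Of 15 liver genes 8 were higher in LTKO by 2-fold or more, relative to its control, and 0 lower, with 1.13% and 0.0361% of all genes so. The median was 1.39, and the list was led by Cyp4a14 at 3.51, Serpina1c at 3.17, albumin (Alb) at 2.89 and Ahsg at 2.73. Other liver genes differed little or were lower: Serpina1a by −0.44, Hp by −0.05, Apoc3 by 0.05, Fga by 0.17 and Cyp3a11 by 0.25. Of the 8 higher liver genes, 6 were 2-fold above each of the 3 other arrays. Tat and Cps1 were not, and lay above the highest other array by 0.87 each. In LDKO, Tat differed from the Irs1/2-flox control by −1.18. On the LTKO array, 5 of 9 epididymal genes, 7 of 14 sperm genes and 8 of 15 liver genes thus passed 2-fold upward. The other genes of each set did not, and the part of RNA from each tissue in these values was not tested. The median level of the sperm list was 5.21 in LTKO, 3.86 in the Irs1/2:FoxO1-flox control, 3.79 in LDKO and 3.85 in the Irs1/2-flox control. That of the liver list was 6.23 in LTKO, 4.31 in the Irs1/2:FoxO1-flox control, 4.49 in LDKO and 4.66 in the Irs1/2-flox control.

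Genes of Leydig and Sertoli cells, the hormone-making and nurse cells of the testis, were flat. None of the 8 measured was 2-fold apart in LTKO, the median was −0.07, and all 8 were under the median gene on every array, with levels from 2.73 to 4.83 in LTKO and from 2.84 to 4.74 in its control. The same held for 8 genes of the seminal vesicle, vas deferens and prostate, with 0 of 8 apart, a median of −0.10, and all 8 under the median gene. Svs2, a main seminal vesicle protein, had 2.77 in LTKO, 2.84 in the Irs1/2:FoxO1-flox control, 3.09 in LDKO and 2.85 in the Irs1/2-flox control. In LTKO, 0 of 8 mesothelial genes (median −0.19) and 0 of 8 skeletal muscle genes (median −0.16) were 2-fold apart from its control. In LDKO, set against the Irs1/2-flox control, 2 of the 8 mesothelial genes were 2-fold lower (median −0.84), with 0.356% of all genes so. So were 3 of the 8 muscle genes (median −0.74), with the myosin gene Myh4 at −2.62. Myh4 had 4.56 in LTKO, 4.56 in the Irs1/2:FoxO1-flox control, 4.95 in LDKO and 7.57 in the Irs1/2-flox control. The median level of the muscle list was 4.42 in LTKO, 4.45 in the Irs1/2:FoxO1-flox control, 4.68 in LDKO and 6.03 in the Irs1/2-flox control, and that of the mesothelial list was 6.49, 6.88, 6.49 and 7.16 on the same arrays. Both medians were highest in the Irs1/2-flox control, where none of the epididymal genes stood 2-fold above the other arrays.

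**Figure D3:**
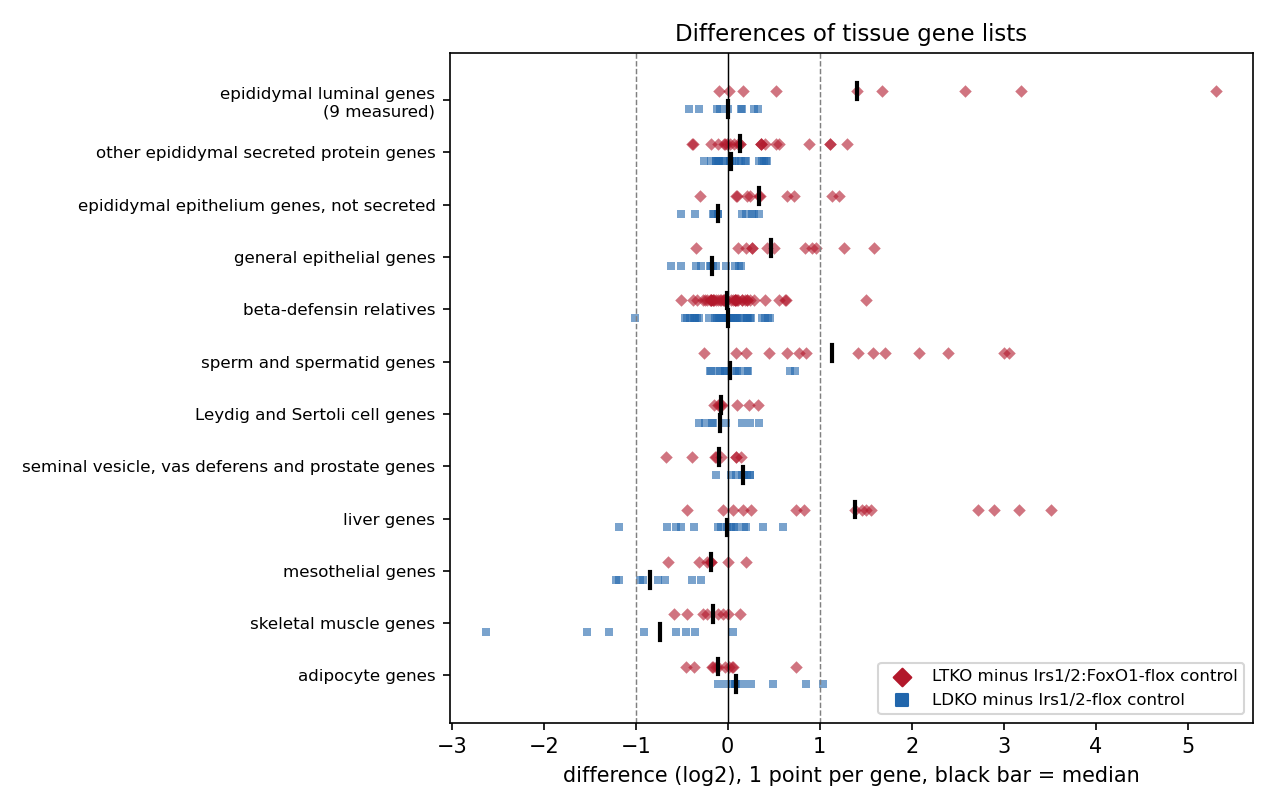
Differences on the log2 scale (horizontal axis) of LTKO minus the Irs1/2:FoxO1-flox control (upper points of each row) and LDKO minus the Irs1/2-flox control (lower points) for the 9 epididymal genes and for lists of epididymal, epithelial, testis, accessory gland, liver, mesothelial, muscle and fat genes, 1 point per gene, with black bars at medians and dashed lines at 2-fold. In LTKO the epididymal, sperm and liver rows reach furthest past 2-fold, with medians of 1.40, 1.14 and 1.39, while the Leydig and Sertoli, accessory gland and fat rows stay within the lines.

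Relatives of the epididymal genes were read by family. Of 13 measured lipocalin relatives outside the set, 0 were 2-fold apart in LTKO, with the largest difference 0.84 for Lcn2, the neutrophil and fat lipocalin, which had 9.32 in LTKO, 8.48 in the Irs1/2:FoxO1-flox control, 8.47 in LDKO and 9.07 in the Irs1/2-flox control. Of 15 relatives of Gpx5, Crisp1 and Adam7, 4 were higher in LTKO by 2-fold against its control, with 1.13% of all genes so. These were Adam28 and 3 genes known from sperm, Adam5, Adam3 and Crisp2, with differences of 1.11, 3.06, 1.71 and 1.58. They are not further genes: Adam5, Adam3 and Crisp2 were counted above with the sperm genes, and Adam28 with the further secreted proteins. All 4 were also 2-fold above each of the 3 other arrays, which held for 0.383% of all genes, and all 4 were among the 8 CRISP and ADAM relatives. Among the glutathione peroxidase relatives the largest difference in LTKO was −0.29, at Gpx8, and Gpx3, the secreted plasma enzyme, had 9.82 in LTKO and 10.06 in its control. Crisp3 and Crisp4, relatives of Crisp1, differed by 0.36 and 0.53.

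Likeness across the 4 arrays was measured as the Euclidean distance between values taken relative to each gene's own mean. The genes nearest to Gpx5, outside the set, were Serpina1c at a distance of 1.52, Cyp4a14 at 1.64, Adam5 at 1.92, Smcp at 1.93 and Ahsg at 2.24. Nearest to the median profile of the 9 epididymal genes were Ldhc, a lactate dehydrogenase of sperm, at 0.15, the fibrinogen gene Fgb at 0.17, Crisp2 at 0.17, Fabp9, a fatty acid carrier of the testis, at 0.19 and the liver gene Cyp2a12 at 0.20. With 4 arrays, such a profile is in effect 1 high array, and the nearest genes are those whose LTKO value was higher by a like amount.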

How the data were processed

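The authors deposited log2 signals per probe, computed in Affymetrix Expression Console by RMA, per the submitters' processing notes, on whole-transcript arrays of biotin-labelled DNA, per the labels' protocols. Versions, and which arrays were normalized together, are not stated in these sources. Groups come from the source names, with 1 array each, so there was no test and precision is limited by the number of arrays. Of 41345 probes, 23521 have 1 gene symbol, and gene identifiers gave current symbols from GRCm38.p6 (23328 matched), used only for names, gene order and promoters. A gene was its single-symbol probe with the highest mean, which gave 22180 genes. Counts are differences of at least 1 (2-fold) over all genes, with no filter on dim genes. The members and lists were chosen with earlier results of these data known. Named genes were the members, up to 4 of a list by size of the LTKO difference, the first of label-check lists and the 5 nearest patterns. Fcna, Gpx6, Lcn3, Lcn11, Obp2a, Obp2b, Crisp3, Crisp4, Gpx3, Gpx8, Slc2a4, Myh4 and the defensins beside Defb48 were named after their values were seen. So were Odf1, Tat, Cps1, Serpina1a, Hp, Apoc3, Fga and Cyp3a11. The steps were tested on simulated data. Alternatives were other folds, probe rules, normalizations, a dim filter and other references. Python 3.11.15, numpy 2.4.6, pandas 2.3.3 and matplotlib 3.10.9 were used.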

Additional observations from a re-analysis of the deposited data

Results flagged for a closer look

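For 3 epididymal genes the LTKO difference from its control and the LDKO difference from its control had opposite signs, with at least 1 of them 2-fold: the difference of the differences was 5.43 for Gpx5, 2.999 for Defb48 and 1.49 for Adam7. With 1 array per group this was not tested, and the LDKO differences behind it were small, at −0.12, −0.42 and −0.09. Lcn9 and Lcn8, also high in LTKO, had a difference of the differences of 3.03 and 1.39. They were not flagged because their LDKO differences were small and positive, at 0.15 and 0.28.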

How the results depend on the processing

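The counts of epididymal genes at least 2-fold apart were recomputed at 1.5-fold and 3-fold, with the probes of a gene averaged, with quantile normalization again, with array medians subtracted, with a filter at the median gene and, for LTKO and LDKO, against the other control and the mean of both controls. The LTKO count of 5 higher genes against its own control was 4 or 5 under these alternatives, and 5 against the highest of the 3 other arrays, a choice made after seeing the data. The count of 5 in LTKO minus LDKO was 3 at 3-fold and 5 otherwise. The other 6 counts were 0, and 24 of their 42 recomputed values could have changed. All 24 were 0. Every measured gene had 1 probe, so the probe rule could not change its value. Under the other alternatives 90 of 90 single-gene differences kept their side of 2-fold, and the 10 that were 2-fold apart above ranged from 1.35 to 5.31. No array could be left out, since each group has 1. No paired analysis was possible because each group has 1 array and no result comes from a test. Dim probes limit what the flat genes show.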

Other observations

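Counting over all genes, 85 were at least 2-fold above every other array in LTKO, 0 in the Irs1/2:FoxO1-flox control, 28 in LDKO and 6 in the Irs1/2-flox control. The 5 high epididymal genes are among the 85, and 0 of the 9 stood so on any of the other arrays. The sperm flagellum gene Odf1 was read from a bright probe that differed by −0.26 between LTKO and its control, while its dimmer probe differed by 1.25.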
